A study of Mus musculus with 6 samples.

Results

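Transcripts of the p53 response and of the apoptosis machinery were examined in 2T3 cells. The module of 38 genes was defined by name, with earlier results of these data known. It comprises p53 itself, its targets in growth arrest and cell death, the Gadd45 family, the Bcl2 family, caspases and the inhibitors of caspases. The platform's probe table maps 88 probe sets to 36 of the 38 genes, and 77 of these probe sets were bright enough to be tested. All 36 had at least 1 tested probe set, among 12554 tested genes in the series. Trp53 and Bax, named in the module, were not analysed here. Each gene is represented by its brightest probe set, and values of its other tested probe sets are given for the members where they lie on both sides of 0 and for the main results.

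The rotated group comprised 3 samples of cells kept for 3 days in a rotating wall vessel, which keeps cells in free fall through the medium by slow rotation and serves as a ground model of microgravity. The static group comprised 3 samples of the same line kept for 3 days in static culture. Total RNA of each sample was hybridised to 1 single-colour Affymetrix array. 2T3 is a clonal pre-osteoblast line from the calvaria of mice in which a Bmp2 promoter drives the SV40 T antigen, so cells of both groups share the transgene. Both groups therefore stand for a single clone, and the labels do not state whether each sample was a culture of its own. The p-values rest on the variation among these 6 samples, part or all of which may be technical. The source fields of static 2 and static 3 name simulated microgravity while their titles name static culture, and the titles were followed. Titles of the other 3 samples carry only the letter R with a number, which was taken to mean rotated, the other condition of the design.

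The p53 protein is a transcription factor that is kept low by the ubiquitin ligase Mdm2 and accumulates when DNA is damaged or growth signals conflict. It then switches on genes that stop the cell cycle, such as Cdkn1a, and genes that promote death by way of mitochondria, such as Bbc3 and Pmaip1. Large T antigen binds p53 and blocks its action on target genes, and it also binds the retinoblastoma proteins, which is how it immortalises cells. Levels of T antigen RNA and of p53 protein were not analysed here. At the mitochondrion, death-promoting and survival members of the Bcl2 family decide whether cytochrome c is released to activate Apaf1 and the caspases.

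The DNA that p53 recognises consists of paired copies of a half-site of 10 bases, with up to 13 bases between them. The region of 250 bases before a start site, from RefSeq sequences of GRCm38.p6, is shown for 3 measured targets that hold the half-site and stood higher in the rotated arrays. For these targets only a region that holds the half-site is printed, and a region of any other start site is not shown. Gadd45g, which had the most negative difference of the module, is shown as well. Capitals mark the p53 half-site consensus, which reads the same on both strands.
Ccng1, chr11:40755287-40755536, minus strand: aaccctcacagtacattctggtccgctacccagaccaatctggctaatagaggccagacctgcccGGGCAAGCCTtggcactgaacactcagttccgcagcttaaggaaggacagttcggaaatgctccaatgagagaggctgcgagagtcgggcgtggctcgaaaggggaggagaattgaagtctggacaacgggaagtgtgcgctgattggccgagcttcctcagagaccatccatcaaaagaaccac
Cdkn1a, chr17:29090729-29090978, plus strand: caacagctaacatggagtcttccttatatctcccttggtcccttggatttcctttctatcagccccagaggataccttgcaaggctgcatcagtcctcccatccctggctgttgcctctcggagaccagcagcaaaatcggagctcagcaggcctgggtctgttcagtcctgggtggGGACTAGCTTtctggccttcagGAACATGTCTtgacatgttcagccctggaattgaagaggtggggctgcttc
Ei24, chr9:36797335-36797584, minus strand: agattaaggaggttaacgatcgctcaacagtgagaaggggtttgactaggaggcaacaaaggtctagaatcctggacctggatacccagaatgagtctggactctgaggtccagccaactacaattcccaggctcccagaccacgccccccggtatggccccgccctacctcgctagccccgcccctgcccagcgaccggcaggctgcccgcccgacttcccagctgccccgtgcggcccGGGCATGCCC
Gadd45g, chr13:51846425-51846674, plus strand: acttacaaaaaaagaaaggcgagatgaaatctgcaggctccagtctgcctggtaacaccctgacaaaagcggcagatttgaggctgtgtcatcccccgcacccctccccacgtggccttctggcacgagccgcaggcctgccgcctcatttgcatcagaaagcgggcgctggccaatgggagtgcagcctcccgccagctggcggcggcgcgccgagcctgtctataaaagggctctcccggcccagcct
The letters of the half-site occur in 7 of 43 such regions of the 31 measured members that the promoter table lists, or 16.3%, and in 7.13% of all 32851 regions. Besides Ccng1, Cdkn1a and Ei24 they occur in regions of Mdm2 and Aen, which were also higher in value in the rotated arrays, and of Gadd45a and Sesn1. The Gadd45g region holds none. Both matches in the Cdkn1a region lie within the spacing allowed for a full site, and such a pair of matches occurs in 0.0639% of all regions. Copies that depart from the consensus are not marked, and whether p53 binds the marked pair was not tested. The match describes these letters only, and the genes that hold it stood on both sides of the comparison, with Gadd45a and Sesn1 lower in value in the rotated arrays.

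The deposited intensities had a common trimmed mean of 500 on every array and medians between 70.0 and 130.1. Rotated 1 stood apart in its actin controls, with a signal ratio of the 3' over the 5' probe sets of 3.21, against 1.57 and 1.48 in the other rotated arrays and 1.29 to 1.37 in the static arrays. Static 1 stood apart in its dim probe sets, with a 10th percentile of 22.1 against 4.5 to 7.2 elsewhere. Of the osteoblast lineage markers, 8 of 8 were tested and all were lower in value in the rotated arrays, against 5873 of 12554 tested genes. Their median log2 difference was -0.53. These markers include the bone transcription factor genes Dlx5, at -1.08 ± 0.32, and Sp7, at -0.84 ± 0.34. Ibsp, Alpl and Pth1r were dim in most arrays, at -0.55 ± 0.47, -0.28 ± 0.47 and -0.35 ± 0.94. The summed intensity of the 8 was 35497.7 to 42786.8 in the rotated arrays and 48044.8 to 50925.9 in the static arrays. Col1a2 was the largest part of this sum, at 22048.3 to 26251.0 in rotated and 24604.8 to 29556.8 in static arrays. Summed markers of macrophages were at 3389.9 to 4657.0 in rotated and 2838.6 to 4549.5 in static arrays. Most of this sum was Cd14, at 2872.6 to 4241.7 in rotated and 2471.3 to 4234.5 in static arrays. Csf1r, Cd68 and Adgre1 reached at most 261.7 in any array, and Ptprc was below the limit for testing. Markers of endothelium, fat and muscle summed to at most 191.2 in any rotated and 239.5 in any static array, and those of epithelium to at most 237.7 and 522.6. Their part in the results was not tested. In bulk RNA, fewer cells of a type and less RNA per cell cannot be told apart.

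The comparison asked which members differ between simulated microgravity and static culture. Of the 10 growth arrest and stress targets 4 were higher and 6 lower in value in the rotated arrays, with a median log2 difference of -0.08. The 4 higher ones, Ccng1, Cdkn1a, Zmat3 and Trp53inp1, stood 1.72- to 2.29-fold above static, while Gadd45g stood 2.72-fold and Btg2 1.98-fold below. The survival genes Mcl1 and Bcl2 and the cytochrome c gene Cycs were higher in value, while Casp2, Casp8, Xiap and Birc2 were lower. The members thus did not stand on 1 side: 21 were higher and 15 lower in value, with a median log2 difference of 0.19, against 0.03 over all tested genes. After adjustment over all 27022 tested probe sets limma called 0 members and 0 probe sets (0% of the series), and the smallest adjusted p among members was 0.316. An unadjusted p under 0.05 was found for 9 members, 6 higher and 3 lower, or 25% of the module against 8.24% of all tested genes (4.49% higher and 3.74% lower). In 13 members the arrays of the groups were fully separate, 9 higher and 4 lower. This is 36.1% of the module against 15.4% of all tested genes (8.29% higher and 7.11% lower). Module and further lists were chosen with earlier results of these data known, so such shares are a description and no test. With median centring in place of quantile normalization the separate members were 8 higher and 1 lower, or 25% against 12% of all tested genes. Those at an unadjusted p under 0.05 were 6 higher and 1 lower, or 19.4% against 4.77%. The median difference was then 0.313 for the members and 0.127 for all tested genes. Arrays that carry the same replicate number deviated together, and with that number as a block 17 members had an unadjusted p under 0.05, 11 higher and 6 lower, or 47.2% against 15% of all tested genes (8.23% higher and 6.75% lower). With the block 2 probe sets of the series (0.0074%) and 0 members passed after adjustment, the smallest adjusted p being 0.12. Without the block, the share of the module at an unadjusted p under 0.05 was 8.33% against 3% of all genes once the actin ratio entered the fit. It was 13.9% against 5.87% with rotated 1 and static 1 both left out. With the mean over the probe sets of each gene it was 16.7% against 7.94%.

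**Figure D1:**
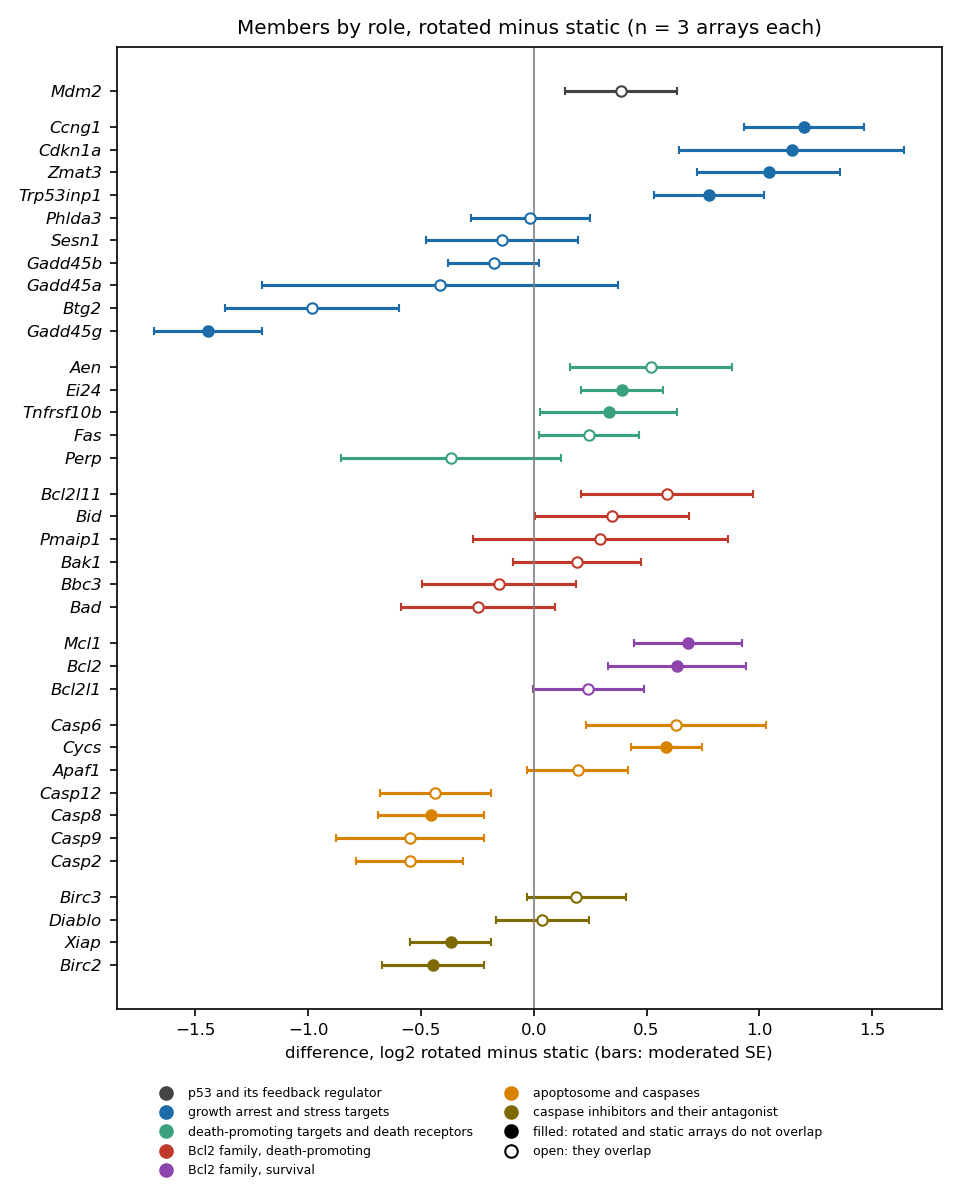
Log2 difference, rotated minus static, of the 36 measured members in blocks by role, with limma's moderated standard error as bars (3 arrays a group). Filled points are the 13 members whose normalised rotated and static values do not overlap; the growth arrest targets span from -1.44 for Gadd45g to 1.20 for Ccng1.

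Among growth arrest and stress targets, Ccng1, which encodes cyclin G1 and is a direct p53 target that feeds back on Mdm2, had intensities of 8989.6, 5716.3 and 3982.1 in the rotated arrays and 2167.2, 3049.3 and 2233.5 in the static arrays. Every rotated array lay above every static array, and rotated 1 was the highest. The log2 difference was 1.20 ± 0.26 (SE, limma adjusted p 0.504), and the other 2 probe sets of Ccng1 gave 0.41 ± 0.22 and 0.61 ± 0.24, also with no overlap. Without rotated 1 the difference was 0.95, and with the mean over its probe sets 0.74.

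Zmat3, an RNA-binding zinc finger protein gene under p53 control, had intensities of 807.9, 449.2 and 548.6 in the rotated arrays, against 386.0, 219.8 and 268.0 in the static arrays. The groups did not overlap, and within each replicate number the rotated array was the higher by 0.95 to 1.23 on the log2 scale. The difference was 1.04 ± 0.32 (limma adjusted p 0.592). Trp53inp1, whose product promotes p53 phosphorylation and autophagy, had 848.4, 619.4 and 796.6 in the rotated and 446.4, 484.0 and 407.4 in the static arrays. It too showed no overlap, with a difference of 0.78 ± 0.24 (limma adjusted p 0.592). Its dimmer probe set gave 0.18 ± 0.29, with overlapping groups.

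Cdkn1a encodes p21, the cyclin-dependent kinase inhibitor through which p53 arrests cells. Its intensities were 3439.1, 2585.1 and 4688.4 in the rotated arrays, against 2291.0, 599.3 and 2551.2 in the static arrays. The groups were separated by a narrow margin, and static 2 lay far below the other 5 arrays. The difference was 1.14 ± 0.50 (limma adjusted p 0.606). Without static 2 it was 0.47, and with the replicate block its standard error was 0.29. The other probe set gave 0.73 ± 0.43 with overlapping groups.

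The 3 Gadd45 genes encode small stress proteins that bind p21 and the MAP kinase kinase kinase Mekk4, and the differences of their brightest probe sets lay between -1.44 and -0.18. Gadd45g had intensities of 482.6, 828.0 and 638.3 in the rotated arrays and 1484.0, 1981.5 and 1941.2 in the static arrays. The highest rotated array lay well below the lowest static array, and within replicate numbers the log2 difference ran only from -1.63 to -1.23. The difference was -1.44 ± 0.24 (limma adjusted p 0.316), the smallest p in the module, and under the alternatives it ranged from -1.62 to -1.25. With array weights its adjusted p was 0.0488, the only call of a member under any of the 19 alternatives. Gadd45a, the member of the family best known as a p53 target, had 854.0, 837.9 and 3215.1 in the rotated arrays, against 4080.8, 445.0 and 2935.3 in the static arrays. Its values spread widely within both groups, with both arrays of number 2 low and both of number 3 high, and the difference was -0.42 ± 0.79 (limma adjusted p 0.882). Its 95% interval, -2.19 to 1.36, covers the value found for Gadd45g. Gadd45b had 1906.5, 1827.6 and 2051.5 in the rotated arrays, against 1986.2, 1884.0 and 2610.3 in the static arrays. These overlapped, and the interval of its difference, -0.63 to 0.28, lies above the point value of Gadd45g. The other 2 tested probe sets of Gadd45b gave 0.04 ± 0.20 and 0.02 ± 0.45.

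Btg2, an antiproliferative cofactor of mRNA deadenylation, had intensities of 167.9, 395.5 and 459.4 in the rotated arrays and 858.0, 418.3 and 761.7 in the static arrays. Static 2 lay within the rotated range, and the difference was -0.98 ± 0.39 (limma adjusted p 0.603). Without rotated 1 it was -0.60, and the other probe set of Btg2 pointed the other way, at 0.28 ± 0.27. Sesn1, a sestrin that restrains mTORC1, had 1372.1, 2098.7 and 1571.8 in the rotated arrays and 1238.3, 3222.3 and 1544.5 in the static arrays, with static 2 the highest. Its difference was -0.14 ± 0.34, and its other 3 tested probe sets gave 0.34 ± 0.59, -0.36 ± 0.46 and -0.09 ± 0.38. Phlda3, which competes with Akt for membrane lipids, differed by -0.01 ± 0.26.

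**Figure D2:**
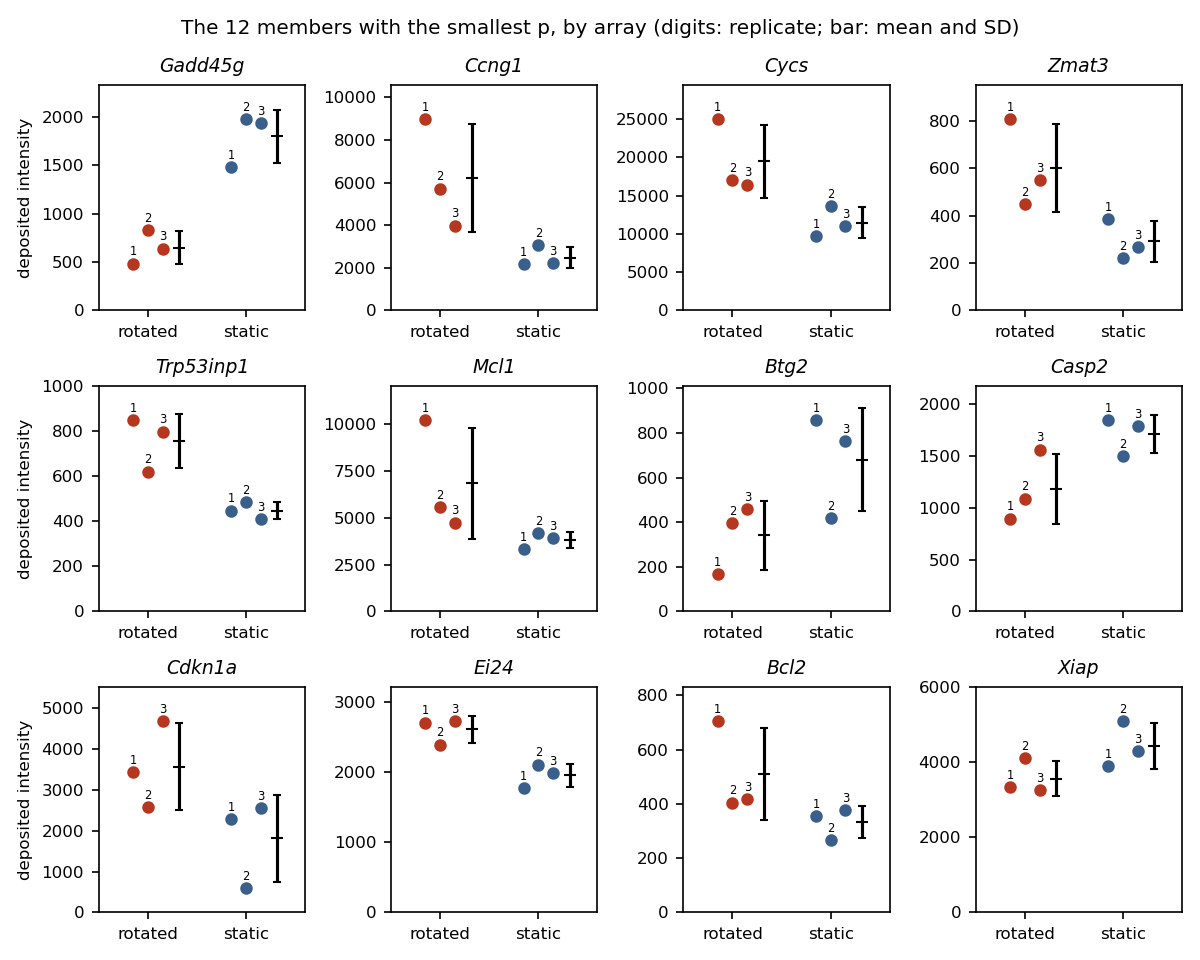
Deposited intensity (linear scale, axes from 0) of the 12 members with the smallest p in each rotated and static array, with replicate numbers beside the points and the mean and SD of each group to the right. Rotated 1 holds the highest point for Ccng1, Cycs, Zmat3, Trp53inp1, Mcl1 and Bcl2, and static 2 the lowest for Cdkn1a, Zmat3 and Bcl2.

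Mdm2, the ligase that degrades p53 and is itself a p53 target, had intensities of 2276.6, 1448.3 and 1703.8 in the rotated arrays and 1586.3, 1097.8 and 1385.5 in the static arrays. The groups overlapped, although the rotated array was the higher within each replicate number. The difference was 0.39 ± 0.25 (limma adjusted p 0.657), with a standard error of 0.15 with the block, and a second tested probe set gave -0.06 ± 0.27.

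Of the death-promoting targets and death receptors, 4 of 5 were higher in value, with a median of 0.33. Ei24, an endoplasmic reticulum protein gene induced by p53, had intensities of 2701.2, 2389.5 and 2724.7 in the rotated arrays and 1769.6, 2100.5 and 1982.7 in the static arrays. The groups did not overlap, and the difference was small but tight, at 0.39 ± 0.18 (limma adjusted p 0.609). Aen, an apoptosis-enhancing nuclease gene, had 737.3, 396.3 and 909.9 in the rotated arrays, against 500.9, 307.4 and 629.4 in the static arrays. These values overlapped, and each rotated array exceeded the static array of its number, with a difference of 0.52 ± 0.36, or 0.26 without static 2. Fas, a death receptor gene, differed by 0.24 ± 0.22. Tnfrsf10b, the gene of the mouse TRAIL receptor, differed by 0.33 ± 0.30. Tnfrsf10b was dim, with 119.1 to 143.4 in rotated and 85.3 to 162.2 in static arrays, and its groups were separate only after normalization. Perp, an adhesion and death gene of p53, lay near the floor at 27.4 to 57.6 in rotated and 35.8 to 103.5 in static arrays, so its difference of -0.37 ± 0.49 is not an exact fold.

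Among the death-promoting Bcl2 proteins, none of the 6 measured members had groups that did not overlap, against 15.4% of all tested genes. For 6 genes a count of 0 is near that share. Bcl2l11 encodes Bim, a BH3-only protein that binds all survival members. Its brightest probe set had 4005.8, 2294.1 and 1307.1 in the rotated arrays and 1930.8, 1365.5 and 1196.5 in the static arrays. Rotated 1 was the highest and rotated 3 lay within the static range, and the difference was 0.59 ± 0.38 (limma adjusted p 0.657). It was 0.20 without rotated 1 and -0.04 when the actin ratio entered the fit. Its other 4 probe sets lay between -0.07 and 0.25. Pmaip1, which encodes the p53-induced BH3-only protein Noxa, had 441.9, 313.1 and 671.2 in the rotated arrays and 806.7, 116.8 and 509.0 in the static arrays. Static 2 was the lowest and static 1 the highest, and the difference was 0.29 ± 0.57. Bbc3, which encodes Puma, the other BH3-only target of p53, differed by -0.15 ± 0.34, with an interval from -0.92 to 0.62. Bid, which caspase 8 cleaves to reach the mitochondrion, differed by 0.35 ± 0.34, and by 0.019 without rotated 3. Bak1, a pore-forming effector gene, differed by 0.19 ± 0.28. Bad, a BH3-only protein regulated by Akt, differed by -0.25 ± 0.34 in its brightest probe set and by 0.21 ± 0.32 in the other.

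In their brightest probe sets the survival members were higher in value in 3 of 3 cases, as were 6681 of 12554 tested genes. Mcl1, a short-lived survival protein, had intensities of 10238.4, 5587.0 and 4745.4 in the rotated arrays and 3335.3, 4171.4 and 3905.3 in the static arrays for its brightest probe set. These did not overlap, and rotated 1 lay far above the other rotated arrays. The difference was 0.68 ± 0.24 (limma adjusted p 0.592) and 0.42 without rotated 1. The 6 tested probe sets of Mcl1 did not match: 3 gave 0.64 to 0.71, and the others gave 0.15, -0.14 and -0.25. The first 3 carry the platform's mark for probes that can bind other transcripts, and the mean over all 6 was 0.30. Bcl2 itself had 705.9, 404.5 and 418.5 in the rotated arrays and 354.1, 267.6 and 378.0 in the static arrays. The groups did not overlap, with a difference of 0.63 ± 0.31 (limma adjusted p 0.61), which was 0.33 without rotated 1. Its other 2 tested probe sets, both dimmer, gave 0.07 and -0.25, and the mean over its tested probe sets gave 0.15. Bcl2l1, which encodes Bcl-xL, differed by 0.24 ± 0.25 in its brightest probe set, with 2 dim probe sets at -0.93 ± 0.68 and -1.04 ± 0.72. The mean over its tested probe sets pointed the other way, at -0.58.

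**Figure D3:**
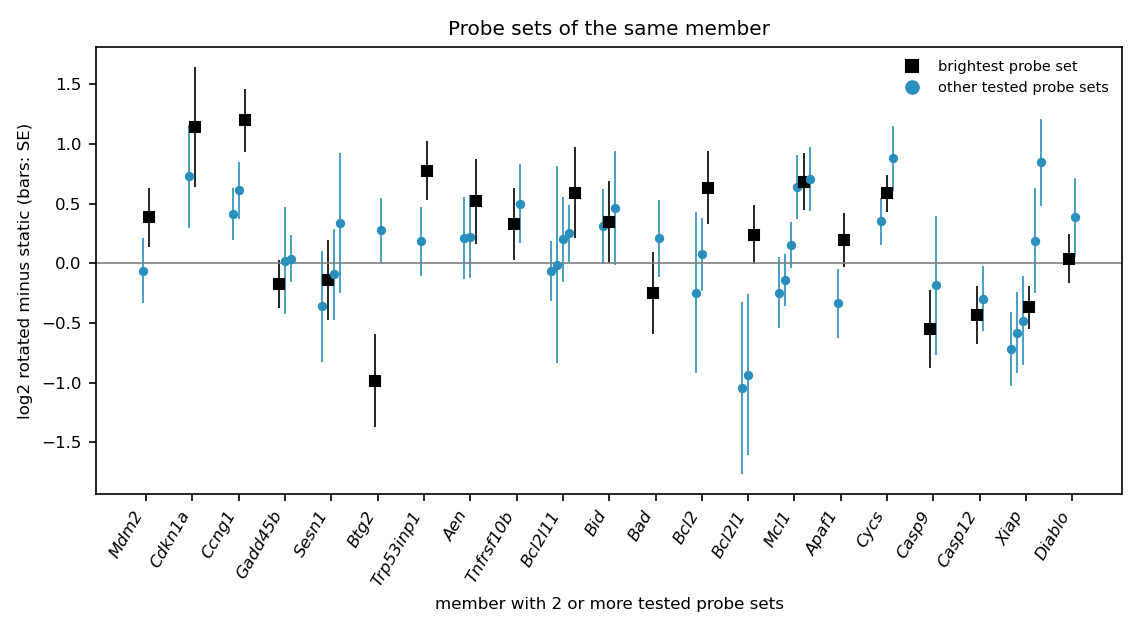
Log2 difference, rotated minus static, of each tested probe set of the 21 members with 2 or more, with standard errors as bars; black squares are the brightest probe sets and blue circles the others. The probe sets of Ccng1, Cdkn1a and Cycs all lie above 0, while 11 members have probe sets on both sides of 0, Mcl1 and Xiap among them.

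In the apoptosome, Cycs, the gene of somatic cytochrome c, had intensities of 24994.8, 17034.2 and 16430.6 in the rotated arrays and 9667.2, 13638.7 and 11038.1 in the static arrays. The groups did not overlap, and the difference was 0.59 ± 0.16 (limma adjusted p 0.592). The other 2 tested probe sets gave 0.88 ± 0.27 and 0.35 ± 0.20, and without rotated 1 the brightest gave 0.50. Apaf1, the scaffold that cytochrome c activates, differed by 0.20 ± 0.22, its other probe set by -0.34 ± 0.29. Cycs also serves in the respiratory chain, so its level is no measure of apoptosis.

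Of the 5 measured caspases, 4 were lower in value in the rotated arrays. Casp2, an initiator caspase activated by the p53 target Pidd1, had intensities of 895.4, 1090.4 and 1562.0 in the rotated arrays and 1849.9, 1502.0 and 1790.8 in the static arrays. Rotated 3 lay just above static 2, and the difference was -0.55 ± 0.24 (limma adjusted p 0.606), or -0.41 without rotated 1. Casp8, the initiator of death receptors, had 641.6, 1072.5 and 936.7 in the rotated arrays and 1088.9, 1373.0 and 1200.9 in the static arrays. The groups did not overlap, and the difference was -0.46 ± 0.23 (limma adjusted p 0.616), or -0.30 without rotated 1. Casp9, which the apoptosome activates, had 128.8, 283.5 and 210.5 in the rotated arrays, against 294.4, 349.5 and 310.5 in the static arrays. As deposited these did not overlap, but after normalization they did, and the difference was -0.55 ± 0.33. It was -0.27 without rotated 1 and -0.12 when the actin ratio entered the fit. Casp12, a caspase of the endoplasmic reticulum in the mouse, had 1466.6, 1971.5 and 1125.9 in the rotated arrays, against 2085.1, 1922.8 and 1942.3 in the static arrays, and rotated 2 lay within the static range. Its difference was -0.44 ± 0.24, or -0.22 without rotated 3. Casp6, an executioner caspase, stood on the other side at 0.63 ± 0.40, with 732.0, 1091.6 and 458.3 in the rotated and 316.4, 679.6 and 538.8 in the static arrays, which overlapped. Its difference was 0.30 without static 1. With each replicate left out in turn the differences of these 5 genes kept their direction, though not their size.

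Among inhibitors of apoptosis, Xiap, which binds and blocks active caspases, had intensities of 3324.7, 4094.8 and 3258.4 in the rotated arrays and 3895.9, 5091.0 and 4289.9 in the static arrays. The groups overlapped as deposited and were separate after normalization, with a difference of -0.37 ± 0.18 (limma adjusted p 0.61). Within replicate numbers the difference was -0.42 to -0.30. The second brightest probe set gave -0.72 ± 0.31, a dim one gave 0.85 ± 0.37 in the other direction, and the other 3 lay between -0.58 and 0.19. Birc2, the ubiquitin ligase cIAP1, had 908.8, 1002.6 and 755.6 in the rotated arrays and 1247.8, 1306.2 and 1114.9 in the static arrays. Here every rotated array lay below every static array, and the difference was -0.45 ± 0.23 (limma adjusted p 0.612). Its paralogue Birc3, cIAP2, differed by 0.19 ± 0.22 with overlapping groups. Diablo, the mitochondrial antagonist of these inhibitors, had 1388.1, 1295.0 and 1736.6 in the rotated arrays, against 1430.3, 1284.8 and 1570.0 in the static arrays. Its difference was 0.04 ± 0.21, and the interval, -0.43 to 0.50, bounds it within that range. Its dimmer probe set gave 0.39 ± 0.33, with separate groups.

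Members did not vary alike among the arrays. Static 2 was the lowest of the 6 arrays for 10 of the 36 members, or 27.8% against 17.4% of all tested genes, and the highest for 10 others, or 27.8% against 15.7%. The members lowest there include the p53 targets Cdkn1a, Mdm2, Zmat3, Aen, Gadd45a and Pmaip1, and those highest there include Sesn1, Phlda3, Perp and Fas. Without static 2 the difference was 0.47 for Cdkn1a, -0.42 for Pmaip1 and -1.40 for Gadd45a. Within replicate numbers, 14 members were higher in the rotated array of all 3 pairs, or 38.9% against 23.8% of all tested genes. Another 8 were lower in all 3 pairs, or 22.2% against 19.4%, a share near that of all genes.

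**Figure D4:**
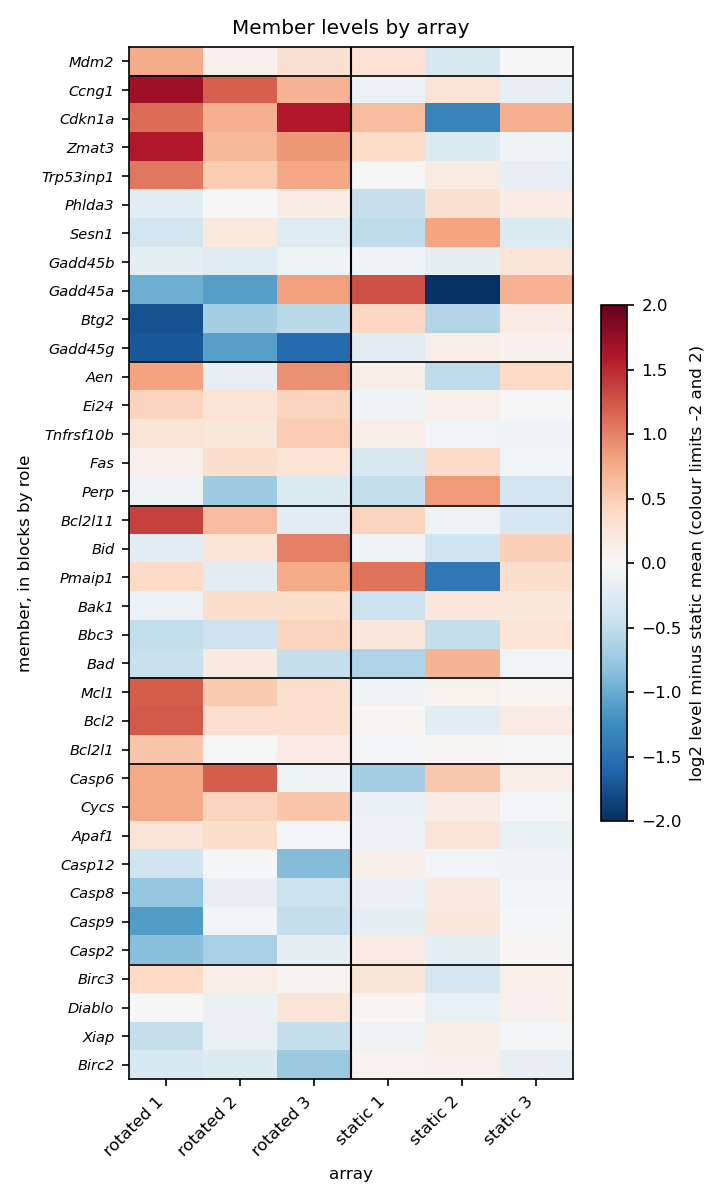
Normalised log2 level of each measured member (rows, in blocks by role) in each rotated and static array, minus the mean of the static arrays; red is higher and blue lower. The static 2 column is dark blue for Cdkn1a, Gadd45a and Pmaip1, and Gadd45g is blue in all 3 rotated columns.

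Further p53 targets outside the module, 26 genes of which 22 were tested, were higher in value for 13 and lower for 9, with a median of 0.07. At an unadjusted p under 0.05 there was 1, or 4.55% against 8.24% of all tested genes. With the replicate block there were 3, 2 higher and 1 lower, against 15% of all tested genes. The gene without the block was Ephx1, the microsomal epoxide hydrolase gene, with 2989.4, 4255.3 and 3776.9 in the rotated arrays and 1643.3, 2149.3 and 2099.0 in the static arrays. Its groups did not overlap, and the difference was 0.87 ± 0.21 (limma adjusted p 0.564). Tigar, a regulator of glycolysis, differed by 0.81 ± 0.37 and the lipase gene Abhd4 by 0.43 ± 0.22.

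Of 20 regulators and partners of p53, all tested, 12 were higher and 8 lower in value, and 5 had an unadjusted p under 0.05 (25% against 8.24% of all tested genes), 3 higher and 2 lower. Hipk2, a kinase that phosphorylates p53, had 2386.5, 2729.0 and 1998.8 in the rotated arrays and 1484.8, 1352.4 and 1271.7 in the static arrays, without overlap. The difference was 0.76 ± 0.21 (limma adjusted p 0.592). Cdkn2a, whose locus encodes the Mdm2 inhibitor Arf and the kinase inhibitor p16, had 593.2, 1100.3 and 1411.0 in the rotated arrays and 2147.7, 2752.6 and 1711.5 in the static arrays. It lay lower in every rotated array, with a difference of -1.11 ± 0.31 (limma adjusted p 0.592). The p53 paralogue gene Trp63 differed by -1.20 ± 0.47. Rb1, Rbl1 and Rbl2, the retinoblastoma genes, differed by 0.07 ± 0.20, -0.13 ± 0.17 and 0.27 ± 0.31.

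Of 8 tested Bcl2 relatives out of 11 listed, 0 had an unadjusted p under 0.05 in limma, against 8.24% of all tested genes, and 0 passed adjustment. Bcl2l13 stood at -0.53 ± 0.25, Hrk at -0.66 ± 0.37 and Bnip3 at 0.36 ± 0.21. In 2 of the 8, both lower, the groups were separate, or 25% against 15.4% of all tested genes. With the replicate block 1 of the 8, lower in value, had an unadjusted p under 0.05, against 15% of all tested genes. For so few genes these counts are near the shares of all genes. Of 9 tested genes of death receptor signalling and other caspases out of 15 listed, 0 had an unadjusted p under 0.05 in limma. This too is near the 8.24% of all tested genes for so few genes, and 0 passed adjustment. The smallest p there belonged to the adaptor gene Cradd, at -0.47 ± 0.24, followed by Tradd at 0.38 ± 0.27 and Daxx at 0.38 ± 0.34. Of 10 further caspase inhibitors, mitochondrial factors and substrates, 1 had an unadjusted p under 0.05, or 10%, a share near the 8.24% of all tested genes. This was Endog, a mitochondrial nuclease gene, with 242.6, 330.6 and 290.5 in the rotated and 204.9, 144.2 and 209.7 in the static arrays, which did not overlap. Its difference was 0.72 ± 0.27 (limma adjusted p 0.592). Birc6 differed by 0.62 ± 0.32 and Dffb, the caspase-activated DNase gene, by 0.60 ± 0.43.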

How the data were processed

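The deposited table holds the authors' intensity for each of 45101 probe sets on a linear scale, 1 array per sample, with each array scaled to a common trimmed mean. No source used here names the software or genome build, so the coordinates printed belong only to the RefSeq promoter table. Intensities were transformed as log2(value + 16.6), where the offset is the 20th percentile of all values. Differences of dim genes are therefore understated. Array medians differed by 85.9%, so the arrays were quantile normalised. Probe sets of the 64 controls and those with a mean below the 40th percentile (5.96 on the log2 scale) were left out, leaving 27022.

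The test was limma's, version 3.58.1 under R 4.3.3 (eBayes with an intensity trend, two-sided), with Benjamini-Hochberg adjustment over all tested probe sets. Differences are log2 rotated minus static with the moderated standard error (n = 3 arrays a group), and intervals are 95% limma intervals. Values by array are deposited intensities, and overlap was judged on normalised values unless stated. Probe sets were named through the platform table, with symbols updated by gene identifier: 34945 had 1 symbol, 932 several and 9160 none.

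The same-numbered rotated and static arrays deviated from their group means with correlations of 0.20, 0.31 and 0.33, so the numbers were taken to pair the samples, as the data and not the labels show. The fit with that block is given where it moves a printed count by over 1.5 times.

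The members and gene lists were chosen with earlier results of these data known. Members were grouped by role; values by array are given for members at an unadjusted p under 0.05, for the 6 of smallest p on either side, and for Cdkn1a, Mdm2, Bcl2 and the Gadd45 and caspase genes, and up to 3 genes with the smallest p are named from each further list. The retinoblastoma genes, and values by array of Sesn1, Ei24, Aen, Bcl2l11, Pmaip1 and Diablo, were added after their values were seen. Alternatives were other scalings, offsets, filters and variance models, the replicate block, the mean over probe sets, and each sample left out. The actin covariate and the joint omission of rotated 1 and static 1 were chosen after seeing the data. The limma step was tested on simulated data with 200 changed probe sets among 27022. At an adjusted p under 0.05 it recovered 2.85% of 2-fold and 37% of 4-fold changes, with 1.9 false calls a run. The absence of a call therefore does not show that a member is unchanged. With 3 arrays a group, precision is limited by their number.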

Additional observations from a re-analysis of the deposited data

How the results depend on the processing

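After adjustment 0 members passed in limma under 18 of the 19 alternatives. With array weights 1 member passed, Gadd45g at -1.33, and 22 probe sets of the series, against 2 probe sets with the replicate block. The fit with the replicate block raised the members at an unadjusted p under 0.05 to 17, against 9 without it, and changed no call of a member. The share of all tested genes rose as well, to 15% against 8.24%. Without the block that count was 3 when the actin ratio entered the fit, or 8.33% against 3% of all tested genes. It was 5 with rotated 1 and static 1 both left out, or 13.9% against 5.87%. It was 6 to 11 with each sample left out in turn, or 16.7% to 30.6% against 4.35% to 11.3% of all tested genes. With the mean over the probe sets of each gene, 16.7% of the members were at an unadjusted p under 0.05, against 25% with the brightest probe set. The median difference of the members was 0.313 with median centring, which put the median of all genes at 0.127, 0.0985 with array weights, 0.104 with the actin covariate, and 0.0946 to 0.226 with each sample left out. The number of members with separate groups stayed within 1.5 times its value under all 19 alternatives, but the share of all genes did not. In the main fit it was 36.1% of the members against 15.4% of all tested genes. With each sample left out it was 36.1% to 52.8% against 20.8% to 31.1%. With rotated 1 and static 1 both left out it was 47.2% against 35.9%. Fewer arrays separate more readily. The split moved too: with median centring 1 lower member was separate, against 4. Lower members at an unadjusted p under 0.05 numbered 1, against 3, with median centring, without rotated 1, without static 1, without static 3, and in both added fits. In these fits 3% to 7.11% of all tested genes were at that p in either direction, against 8.24% in the main fit. The share of lower genes alone is not given for them. The direction was the same under every alternative for 23 of 36 members, among them Gadd45g, Ccng1, Zmat3, Trp53inp1, Cycs and Cdkn1a, and changed at least once for the others. Detection calls were not used here, so dim values such as those of Perp and Tnfrsf10b are not given as bounds.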
